A study of Rattus norvegicus with 6 samples.

Results

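The genes of MHC class II antigen presentation were examined in the blood of rats 24 h after reperfusion from Middle Cerebral Artery Occlusion (MCAO) or a sham operation. The set comprised 9 genes named for their role: the classical chain genes RT1-Ba, RT1-Bb, RT1-Da and RT1-Db1, the invariant chain gene Cd74, the peptide loading genes RT1-DMa, RT1-DMb and RT1-DOb, and the coactivator gene Ciita. Every probe set whose gene symbol in the array annotation was one of these was taken, which gave 14 probe sets for 8 genes, out of 31042 probe sets tested. Each of the 14 carried 1 symbol. No probe set was matched to RT1-DOb, so its expression was not analysed here. Across the array, 20826 probe sets carried exactly 1 symbol and stood for 14217 genes.

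The MCAO group was 3 male Sprague-Dawley rats aged 8 weeks, in which a coated thread closed the origin of the left middle cerebral artery until it was withdrawn. The sham group was 3 male rats of the same stock and age in which an uncoated thread was passed into the same vessel, so both groups had anaesthesia, surgery and ligated neck arteries. The MCAO rats were those chosen from a larger operated group for the size of their infarct, while the sham rats were not selected. Whole blood was drawn from the heart of each rat and its RNA hybridised to 1 array, with biotin label. Sprague-Dawley rats are an outbred stock, and the RT1 haplotypes of the 6 rats are not given in the sources used here.

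MHC class II molecules are pairs of an alpha and a beta chain that show peptides from ingested proteins to CD4+ T cells. In the rat the pairs are called RT1-B and RT1-D, and B cells, monocytes and dendritic cells are their main carriers in blood. New pairs bind the invariant chain Cd74, which blocks the groove and guides them to endosomes, where RT1-DM exchanges the last invariant chain fragment for peptide and RT1-DO restrains RT1-DM. Transcription rests on Ciita, a coactivator that does not bind DNA itself and is recruited by factors sitting on a conserved stretch upstream of these genes, with an X box and a Y box at a near fixed distance. Some of the classical chain genes, though not all, are among the most variable genes between individuals.

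The promoters are shown first because this shared upstream stretch is what ties the genes together as a family. RefSeq promoter windows of the GRCr8 build, from 250 bases before to 50 bases after each start site, were held for 7 of the 9 genes, all except RT1-DMb and Ciita. They were searched on both strands for an X box core, ACNGATG, and a Y box core, ATTGG, which do not overlap in the windows printed. The stretch around the cores is given on the strand of the gene, 5′ to 3′, with the cores in capitals. Windows run from 20 bases before the X core, or 45 bases before a lone Y core, to 8 bases after the Y core.
RT1-Da, chr20:4515316-4515378, plus strand: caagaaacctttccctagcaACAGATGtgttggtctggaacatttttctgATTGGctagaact
RT1-Db1, chr20:4560230-4560291, minus strand: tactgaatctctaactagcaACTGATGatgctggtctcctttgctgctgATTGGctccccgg
RT1-Bb, chr20:4604167-4604228, minus strand: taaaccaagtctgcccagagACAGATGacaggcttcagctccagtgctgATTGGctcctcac
RT1-DMa, chr20:4712387-4712449, minus strand: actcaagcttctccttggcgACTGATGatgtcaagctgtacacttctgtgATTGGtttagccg
RT1-DOb, chr20:4627594-4627653, minus strand: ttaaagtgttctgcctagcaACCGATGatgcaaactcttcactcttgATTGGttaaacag
RT1-Ba, chr20:4576969-4577026, plus strand: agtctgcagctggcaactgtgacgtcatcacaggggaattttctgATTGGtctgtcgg
Cd74, chr18:56526972-56527029, plus strand: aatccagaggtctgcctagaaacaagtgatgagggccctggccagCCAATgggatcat

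In the 5 promoters that held both cores, the X core preceded the Y core with 20 bases between them in RT1-DOb, 22 in RT1-Bb and RT1-Db1, and 23 in RT1-Da and RT1-DMa. The X core began 79 bases before the start site in RT1-Da and 110 bases before it in RT1-DOb, the nearest and farthest of the 5. An X core followed by a Y core within 40 bases occurred in 139 of the 33469 rat promoters searched, or 0.415%. The X core was found in 10.2% of all promoters and the Y core in 37.5%, each with or without the other. RT1-Ba held the Y core 43 bases before its start site and no X core of these letters. It was the 1 member with the sequence CGTCA, a part of the cyclic AMP response element found in 21.2% of all promoters. Cd74 held the Y core as its reverse complement, 189 bases before the start site, again with no X core of these letters.

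**Figure D1:**
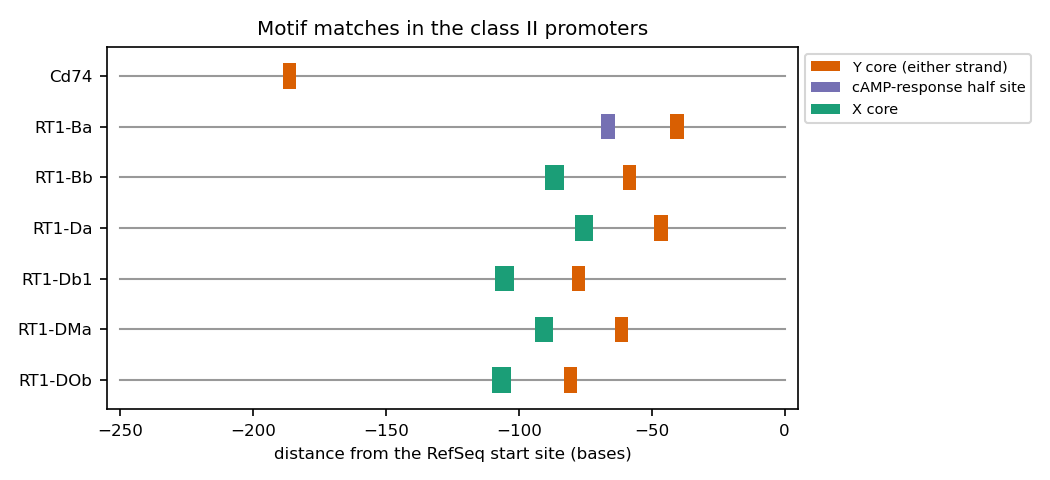
Map of the cores printed in capitals, and of the CGTCA match of RT1-Ba, in the promoters of 7 MHC class II genes, with the distance in bases from the start site on the horizontal axis and 1 gene per row. The X core lies 79 to 110 bases before the start site in 5 genes, each time followed by a Y core. RT1-Ba and Cd74 have a Y core and no X core of the letters searched.

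The map of motif matches shows the near constant spacing in RT1-Da, RT1-Db1, RT1-Bb, RT1-DMa and RT1-DOb. It also shows the Y cores of RT1-Ba and Cd74, which have no X core of the letters searched. RT1-DMa, a peptide loading gene, has the same 23 bases between its cores as the classical chain gene RT1-Da. A match describes these letters only, so an X box of other letters, in RT1-Ba or Cd74 for example, would not be found. No binding was measured.

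The deposited values ran from 4.93 to 14.43 on a scale taken as log2, and the 6 arrays had medians between 5.56433 in MCAO rat 1 and 5.5644 in sham rats 2 and 3. They were made by the authors with the DFW method, which draws probe sets with little variation almost flat, so that the median SD over the 6 arrays was 2.46e-06 and 89.3% of probe sets had a range under 0.0001. The range of Cd74, 0.0497, therefore ranked 33 of 31042, and differences between groups on this scale are not fold changes of RNA. Over the whole array, 184 probe sets were called lower in MCAO, of which 170 were highest in sham rat 2 or 3. That was 92.4% of them, against 32.5% of all probe sets, although a lower call by itself favours a high sham rat. No background estimate comes with the values, so the signal over background is unknown, and 3 rats per group limit the precision.

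Calls were made with Rank Products, which pairs each MCAO array with each sham array and ranks every probe set in the 9 differences. The product of the 9 ranks is scored, so very extreme ranks in some of the differences can be enough for a call. Probe sets were called at a false discovery rate (FDR) under 0.05. By this rule 4 of the 14 MHC class II probe sets were lower in MCAO rats: those of Cd74, RT1-Da and RT1-Db1, and 1 of the 4 probe sets of RT1-Ba. None was higher, and 10 were not called. Over all probe sets tested, 0.593% were called lower and 0.135% higher. The mean was lower in MCAO rats at 13 of the 14 probe sets, with a median log2 difference of -0.000586 over the 14 and 6.72e-08 over all probe sets. With 1 probe set per gene, 50.2% of all genes had a lower mean. Centring each array on its median turned 4 of the 13, all nearly flat and not called.

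The 4 calls depended on which sham rats were included. Without sham rat 3, 0 of the 14 were called, and without sham rat 2, 2 were called, Cd74 and RT1-Ba. The lower calls over all probe sets also fell, to 13 without sham rat 3 and 21 without sham rat 2, against 184 with all rats. Without sham rat 1 they fell to 43, while 5 of the 14 were called. With the sum of ranks in place of the product, 1 was called, RT1-Db1. By limma, 0 of 14 passed at an adjusted p under 0.05, as for 0.0% of all probe sets, and 0 of 14 at an unadjusted p under 0.05, against 3.7% of all probe sets. Each exact permutation test of 3 rats against 3 can reach no p under 0.1, and p-values here measure the spread between these rats. The Rank Products FDR does not, because its permutations shuffle the values across probe sets within each array.

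Cd74, the invariant chain gene, had log2 values of 7.8229, 7.8548 and 7.8642 in the MCAO rats and 7.8609, 7.8722 and 7.8726 in the sham rats, each in the order of rats 1, 2 and 3, at its only probe set. MCAO rat 1 lay far below the other 5 rats, and MCAO rat 3 lay above sham rat 1, so the groups overlapped. Means were 7.85 ± 0.0216 in MCAO rats and 7.87 ± 0.00665 in sham rats (SD, n = 3 each). The log2 difference was -0.0213 (SE 0.0123), with a Rank Products FDR of 0.00143 and an exact two-sided permutation p = 0.2. Without MCAO rat 1 the difference was -0.00909, and the FDR was 0.0361 without sham rat 2 and 0.0563 without sham rat 3.

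RT1-Da, the alpha chain of RT1-D, had log2 values of 7.1045, 7.1262 and 7.1351 in MCAO rats and 7.1279, 7.1389 and 7.1428 in sham rats at 1370883_at. The order of the rats was close to that of Cd74, with MCAO rat 1 lowest, sham rats 2 and 3 highest, and an overlap of sham rat 1 with MCAO rat 3. RT1-Da differed by -0.0146 on the log2 scale (SE 0.00952), with a Rank Products FDR of 0.000952 and an exact permutation p = 0.2. It lay between -0.0212 and -0.00589 when single rats were left out, and was smallest in size without MCAO rat 1. The FDR was 0.0704 without sham rat 2 and 0.117 without sham rat 3.

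RT1-Db1, a beta chain of RT1-D, was measured at a pair of probe sets that behaved differently. At 1370383_s_at its log2 values were 6.0388, 6.0432 and 6.0446 in MCAO rats and 6.0448, 6.0489 and 6.0506 in sham rats. The highest MCAO value was under the lowest sham value, the only probe set of the 14 for which this held, against 3.6% of all probe sets. The margin between MCAO rat 3 and sham rat 1 was small beside the spread within either group. With MCAO minus sham, the log2 difference was -0.00587 (SE 0.00231), the Rank Products FDR 0.0016 and the exact permutation p = 0.1. The FDR was 0.077 without sham rat 2 and 0.106 without sham rat 3. At 1370382_at all 6 rats had 5.6438, with a range of 1.32e-06, and the probe set was not called. The ending _s_at marks probes shared by several similar transcripts, so that RT1-Db1 and its close relatives may not be separable at the first of these.

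**Figure D2:**
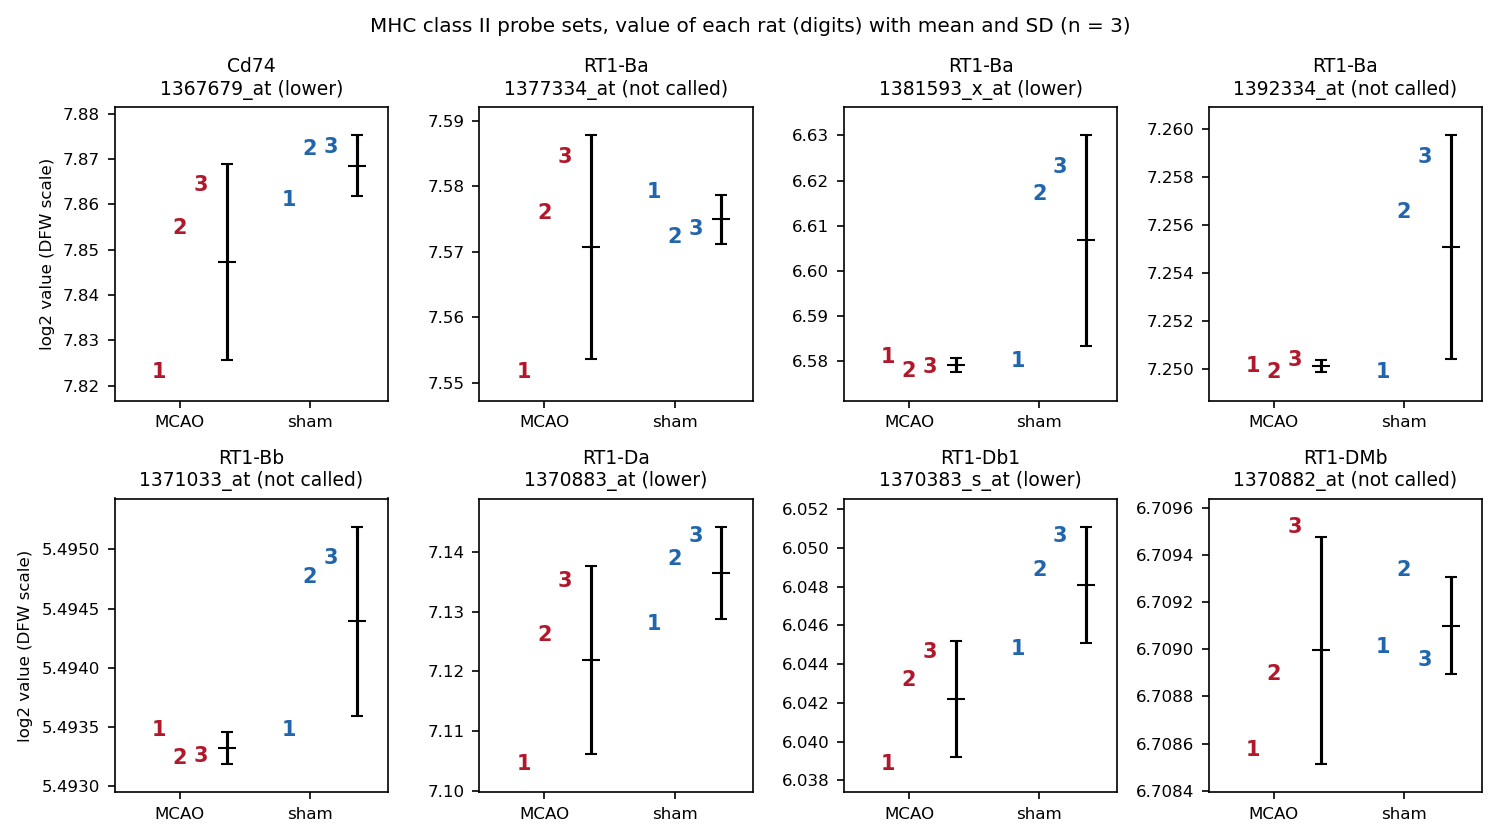
Deposited log2 values (DFW scale, vertical axis of its own in each panel) of the 8 MHC class II probe sets with the widest ranges, with MCAO rats left of sham rats, digits naming the rat, and bars showing the mean and SD of each group (n = 3). MCAO rat 1 is lowest for Cd74, RT1-Da and RT1-Db1 (1370383_s_at), while sham rats 2 and 3 stand above the other 4 rats for RT1-Ba (1381593_x_at).

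RT1-Ba, the alpha chain of RT1-B, was covered by 4 probe sets, and 1 of them was called. At 1381593_x_at the log2 values were 6.5809, 6.5777 and 6.5786 in MCAO rats and 6.5800, 6.6170 and 6.6231 in sham rats. Sham rats 2 and 3 stood 0.0361 above the highest of the other 4 rats, a gap that made up 0.795 of the whole range, and sham rat 1 lay among the MCAO rats. Means were 6.58 ± 0.00164 in MCAO rats and 6.61 ± 0.0233 in sham rats (SD, n = 3 each). The log2 difference was -0.0276 (SE 0.0127), the Rank Products FDR was 0, with no permuted value as extreme in 100 permutations, and the exact permutation p = 0.2. The FDR was 0.0476 without sham rat 2 and 0.0658 without sham rat 3. The ending _x_at marks a probe set in which some probes also match other sequences.

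The RT1-Ba probe set 1392334_at had log2 values of 7.2501, 7.2499 and 7.2504 in MCAO rats and 7.2499, 7.2565 and 7.2588 in sham rats. The same pair of sham rats stood apart and sham rat 1 was the lowest of all 6. The groups differed by -0.00494 (SE 0.00253), with a Rank Products FDR of 0.0529, not called, and an exact permutation p = 0.4. The difference was -0.00754 without sham rat 1 and -0.00307 without sham rat 3. The FDR was 0.033 without MCAO rat 1, 0.0411 without sham rat 1 and 0.81 without sham rat 3. This probe set and 1381593_x_at are annotated to the same source sequence and are not independent readings.

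A different order appeared at 1377334_at, where RT1-Ba had log2 values of 7.5515, 7.5759 and 7.5844 in MCAO rats and 7.5792, 7.5722 and 7.5734 in sham rats. MCAO rats held both the lowest and the highest value, and the 3 sham rats lay between them. The log2 difference was -0.00429 (SE 0.00949) with an exact permutation p = 0.9. It turned to 0.00526 without MCAO rat 1, and the probe set was called lower without MCAO rat 3, at an FDR of 0.0181. At 1370822_at the 6 rats lay between 6.3319 and 6.3320, with a range of 9.37e-05.

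RT1-Bb, the beta chain that pairs with RT1-Ba, had log2 values of 5.4935, 5.4932 and 5.4933 in MCAO rats and 5.4935, 5.4948 and 5.4949 in sham rats at 1371033_at. Sham rats 2 and 3 were again the high rats, with a gap to the other 4 of 0.764 of the range. RT1-Bb differed by -0.00107 on the log2 scale (SE 0.00044), with a Rank Products FDR of 0.0556, not called, and an exact permutation p = 0.2. At 1371065_at RT1-Bb was at 5.3064 in every rat with a range of 1.23e-06, and this was the 1 member probe set whose mean was not lower in MCAO rats, by 5.43e-07.

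RT1-DMa and RT1-DMb encode the chains of RT1-DM, the peptide exchange factor of the endosome, and neither was called. RT1-DMb at 1370882_at had log2 values of 6.7086, 6.7089 and 6.7095 in MCAO rats and 6.7090, 6.7093 and 6.7090 in sham rats. The MCAO rats spanned the whole range of the 6, with rat 1 lowest and rat 3 highest. The log2 difference was -0.000105 (SE 0.000284), with a Rank Products FDR of 0.597 and an exact permutation p = 0.8. RT1-DMa at 1370904_at was at 6.1226 in every rat, with a log2 difference of -2.9e-06 (SE 9.6e-06). Whether the DM genes differed from the classical chain genes in their response was not tested, and a probe set drawn flat by DFW cannot show a change of either kind.

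Ciita, the coactivator, was measured at a pair of probe sets and was flat at both. At 1369214_a_at it was at 5.9355 or 5.9356 in every rat, with a range of 8.5e-06 and an exact permutation p = 1.0. At 1379381_at it was at 6.1578 in every rat, with a range of 6.26e-06 and an exact permutation p = 0.4. Ciita is known as the main switch of class II expression, and no change in either direction could be seen in values this flat.

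By role, 3 of the 9 classical chain probe sets were called lower, 1 of 1 for the invariant chain, 0 of 2 for the DM chains and 0 of 2 for Ciita. The median log2 difference was -0.00429 over the classical chains, -5.38e-05 over the DM chains and -1.05e-06 over Ciita. The calls lay among the probe sets that DFW had left with wide ranges. Over the whole array 168 probe sets had a range over 0.01, of which 80 were called lower (47.6%) and 22 higher (13.1%), and 5 of them were members, with 4 called lower. Of the 27732 with a range under 0.0001, none was called, and 6 members were among these. The ranks of the members by range reached from 33 for Cd74 to 26848 for RT1-Bb at 1371065_at, out of 31042.

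**Figure D3:**
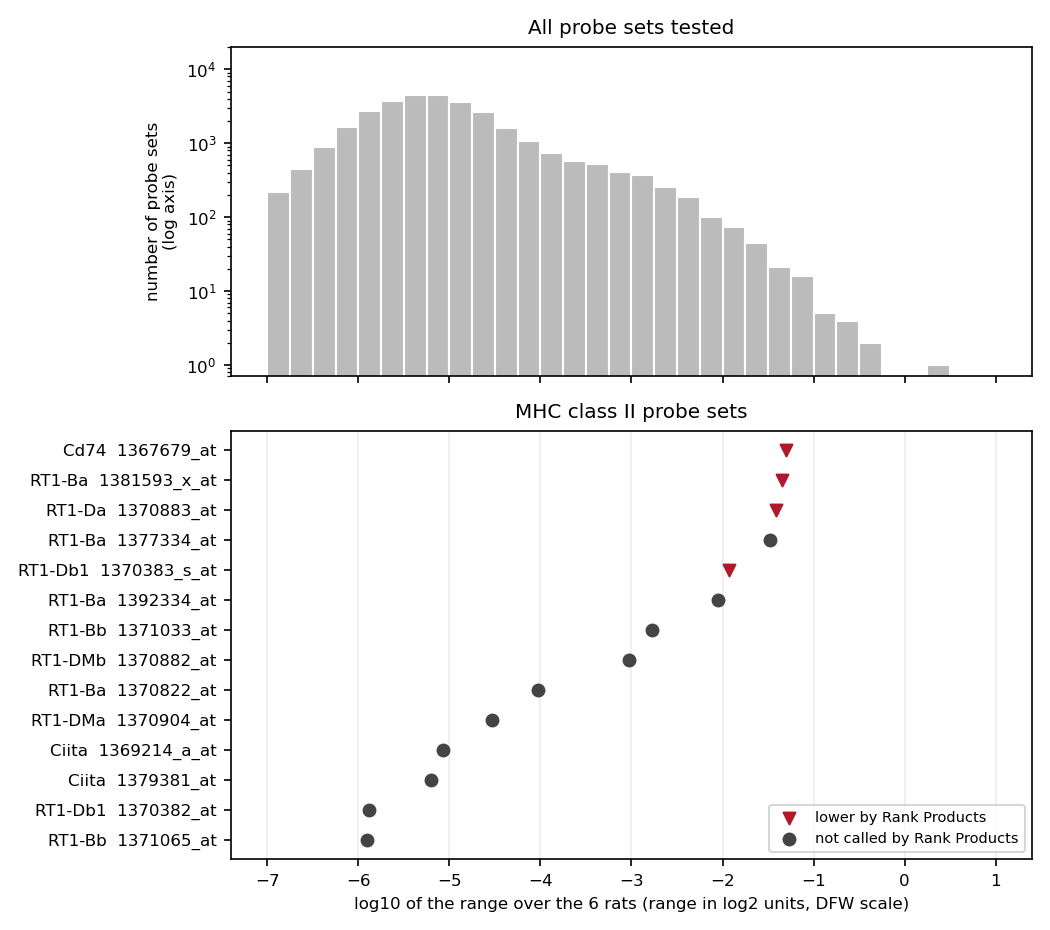
The upper panel counts all probe sets tested by the log10 of their range over the 6 rats, on a log count axis, and the lower panel places each MHC class II probe set on the same axis, marked by its Rank Products call. The 4 called probe sets all have a range over 0.01, and those of Ciita and RT1-DMa lie among the flat bulk of the array.

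The plot of ranges places the members along nearly the full width of the array's distribution. For RT1-Db1 and RT1-Bb, probe sets of the same gene lie far apart on it. RT1-Ba at 1377334_at, rank 49, shows that a wide range did not by itself give a call.

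Set on a common scale, with each probe set's mean over the 6 rats at 0 and its SD at 1, 6 of the members showed 1 of 2 orders of rats. In the first, MCAO rat 1 stood below the other 5 by more than 0.5 of the range, as for Cd74, RT1-Da and RT1-Ba at 1377334_at. In the second, sham rats 2 and 3 stood above the other 4 by more than 0.5 of the range, as for both RT1-Ba probe sets of the shared source sequence and RT1-Bb at 1371033_at. Among the 1081 probe sets of the array with a range over 0.001, 7 of them members, 210 (19.4%) had the first order and 25 (2.31%) the second. These orders were described after the values had been seen, and neither follows the groups.

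**Figure D4:**
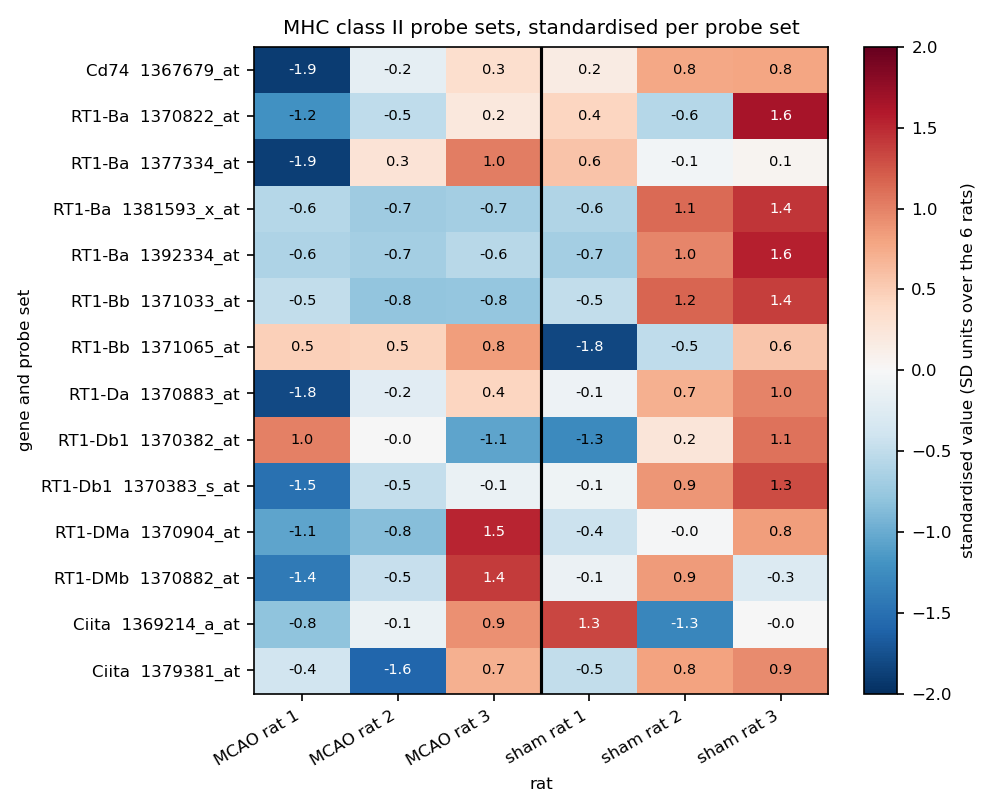
Standardised values of each MHC class II probe set (SD units over the 6 rats, colour scale), with MCAO rats 1 to 3 left of sham rats 1 to 3 and 1 probe set per row. Cd74 is lowest in MCAO rat 1 at -1.9, and RT1-Ba at 1381593_x_at is highest in sham rats 2 and 3 at 1.14 and 1.43.

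The map of standardised values shows the first order in Cd74 and RT1-Da and the second in RT1-Ba and RT1-Bb, with RT1-Db1 at 1370383_s_at between them. Over the 6 rats, Pearson's r with Cd74 was 0.987 for RT1-Da, 0.92 for RT1-Db1 at 1370383_s_at and 0.577 for RT1-Ba at 1381593_x_at. With RT1-Ba at 1381593_x_at, r was 0.996 for RT1-Bb at 1371033_at and -0.0308 for RT1-Ba at 1377334_at. These values describe 6 rats on arrays normalised together. Of the 25 probe sets in which sham rats 2 and 3 stood apart, the 5 with the widest ranges included both of RT1-Ba and those of the class I genes RT1-CE12 and RT1-CE10, with ranges of 0.072 and 0.07. The widest, 1388202_at, had a range of 0.36 and no symbol in the annotation.

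On chromosome 20 the class II genes lie in the order RT1-Da, RT1-Db2, RT1-Db1, RT1-Ba, RT1-Bb, RT1-DOb, RT1-DMb, RT1-DMa and RT1-DOa, with genes of other kinds not listed here. RT1-Ba and RT1-Bb, which showed the sham rat 2 and 3 order at some of their probe sets, are next to each other in this list. Whether position plays a part was not tested. Cd74 lies on chromosome 18 and Ciita on chromosome 10.

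Likeness to Cd74 was measured as Pearson's r over the 6 rats among 132 probe sets of other genes with a range over 0.01. The 5 most alike were Btg1 (0.984), an antiproliferative gene highly expressed in resting lymphocytes, Ighvl1 (0.984), an immunoglobulin heavy chain gene, Snrpe (0.979), a core spliceosome protein, Ppp1cc (0.979), a catalytic subunit of protein phosphatase 1, and Grk6 (0.973), a kinase of G protein-coupled receptors. The median r of the 132 was 0.635, and 34 of them had r over 0.9, so a high r with Cd74 was common among genes of wide range.

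Outside the 9 genes, 44 genes with a known part in the class II pathway were measured and 0 were called in either direction, also when any probe set of a gene was counted. Taking 1 probe set per gene, 0.914% of all genes were called lower and 0.141% higher. The mean was lower in MCAO rats for 30 of the 44, against 50.2% of all genes. The same share stands beside the counts of each list that follow. Of the 17 regulators measured, which include the X and Y box factors and the interferon gamma pathway that induces Ciita, 11 had a lower mean. The largest differences were those of Jak1, a kinase of the interferon receptors, at -0.00235 (SE 0.00193, Rank Products FDR 0.0594), and Ifngr1, the ligand-binding chain of the interferon gamma receptor, at -0.000566 (SE 0.00137).

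Of the 15 genes of endosomal processing, which cut proteins and the invariant chain or control that step, 11 had a lower mean in MCAO rats. The largest differences were 0.000286 (SE 0.000358) for Cst3, the cysteine protease inhibitor cystatin C, and 0.00024 (SE 0.000404) for Lamp2, a lysosomal membrane protein. Of the 12 genes of costimulation and class II turnover, 8 had a lower mean. Marchf1, the ubiquitin ligase that removes class II molecules from the cell surface, differed by -0.000346 (SE 0.000295), and Cd44, which acts with Cd74 at the cell surface, by 0.000245 (SE 0.000544). None of the 6 other class II loci looked for had a probe set by symbol.

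Whole blood mixes cell types, and fewer cells of a type cannot be told apart from less RNA per cell. Of 9 B cell markers measured, the mean was lower in MCAO rats for all 9, against 50.2% of all genes. For 7 the groups did not overlap, against 4.11% of all genes with every MCAO value below the sham values. Of these 7, Ebf1 and Bank1 lay in the flat bulk of the array, with ranges of 2.69e-05 and 2.74e-05. Cd22 and Blk, with overlapping groups, were also flat, with ranges of 6.52e-05 and 3.78e-06. With 1 probe set per gene, Rank Products called 2 of the 9 lower, against 0.914% of all genes. With any probe set of a gene counted, 3 were called lower, a count for which no share of all genes was computed. Ms4a1, which encodes the B cell surface protein CD20, had log2 values of 6.3210, 6.3267 and 6.3273 in MCAO rats and 6.3274, 6.3310 and 6.3319 in sham rats, with a log2 difference of -0.00509 (SE 0.00229) and an FDR of 0.00414. Cr2, the complement receptor of B cells, differed by -0.000833 (SE 0.00033) with an FDR of 0.0456. MCAO rat 1 was lowest and sham rat 3 highest for both, as for Cd74 and RT1-Da, but also for the T cell marker Tcf7. Ms4a1 had a range of 0.0109. Of the 168 probe sets of the array with a range over 0.01, 47.6% were called lower and 102 were lowest in MCAO rat 1. That rat was lowest at 19.5% of all probe sets. Over the 9 markers the log2 levels summed to between 54.786 and 54.795 in the MCAO group and between 54.796 and 54.802 in the sham group. This sum follows mainly Ms4a1, the marker of widest range, with Cr2 next at a range of 0.00173. The B cell markers Cd79a and Pax5 had no probe set by symbol.

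Monocytes and dendritic cells are the other main carriers of class II molecules in blood. Of 9 monocyte markers and 7 dendritic cell markers, 0 were called, against 0.914% of all genes called lower and 0.141% higher. A lower mean in MCAO rats was found for 3 in each list. For the monocyte markers the log2 levels summed to between 57.307 and 57.384 in the MCAO group and between 57.331 and 57.367 in the sham group. This sum follows mainly 1 gene, Lyz2, with a range of 0.0717, against 0.00493 for Csf1r, the next widest. For the dendritic cell markers the levels summed to 41.409 in every rat. T cells carry little class II in the rat at rest. Of 11 T cell markers 2 were called lower, Cd3g and Tcf7, against the same 0.914% of all genes, with a lower mean for 10. Tcf7 had a range of 0.0156, in the wide class where calls were common. Of 9 neutrophil markers, Rank Products called Csf3r higher, at a log2 difference of 0.0131 (SE 0.0187), and S100a9 lower, although the mean of S100a9 was higher in MCAO rats, by 0.00271 (SE 0.0278). Both had overlapping groups, with MCAO rat 1 lowest and MCAO rat 3 highest. Of 5 red cell, 6 platelet and 5 brain markers 0 were called. The part of B cell content in the differences of Cd74, RT1-Da, RT1-Db1 and RT1-Ba was not tested.

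**Figure D5:**
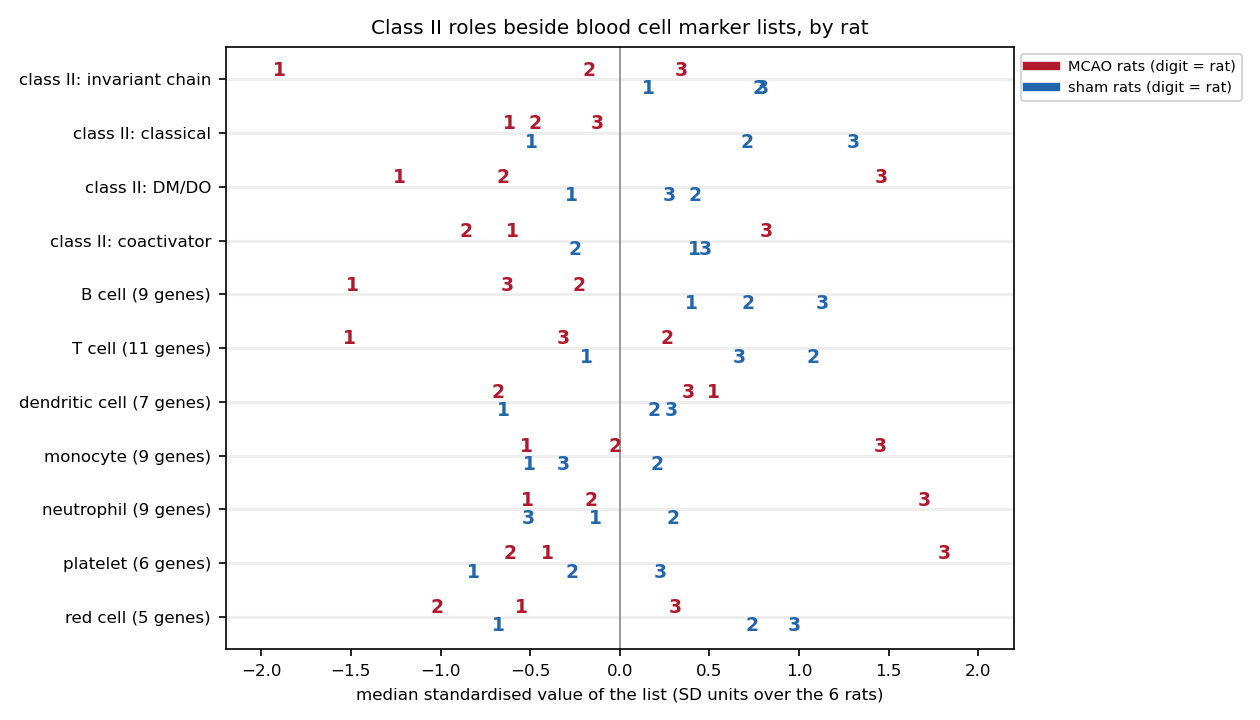
Median standardised value of each MHC class II role and of each blood cell marker list (SD units over the 6 rats), with MCAO rats above sham rats in each row and digits naming the rat. The B cell list is at -1.49, -0.23 and -0.63 in MCAO rats and 0.399, 0.713 and 1.13 in sham rats, whereas MCAO and sham rats overlap for every class II role.

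In the plot of roles and marker lists, the invariant chain stood at -1.9, -0.172 and 0.341 in MCAO rats and 0.161, 0.774 and 0.793 in sham rats. The classical chains stood at -0.614, -0.471 and -0.127 in MCAO rats and -0.492, 0.707 and 1.3 in sham rats. Sham rat 1 lay within the MCAO range for both roles but above the MCAO rats for the B cell list. For the DM chains, MCAO rat 3 was the highest of all at 1.46, as it was for the monocyte, neutrophil and platelet lists.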

How the data were processed

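Whole-blood RNA of 3 MCAO and 3 sham rats was hybridised to GeneChip rat genome arrays, 1 per rat. The deposited values were normalised by the authors with DFW in R and are taken as log2 from their range, since the log base is not given in the sources used here. The 57 control probe sets were left out of 31099. Gene symbols came from GEO's platform annotation, which may be old. Sources name no batch or scan order for the arrays.

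Rank Products, the method named by the study, was coded with numpy 2.4.6 and pandas 2.3.3 (Python 3.11.15) and run over all probe sets with 100 permutations of the values within each array, at an FDR under 0.05. limma 3.58.1 in R 4.3.3 gave differences, standard errors and Benjamini-Hochberg adjusted p-values, and exact two-sided permutation tests covered all 10 divisions of 6 rats into 3 and 3. Both scripts were run on simulated data as a check of the code, which does not show how reliable calls on these DFW values are. Alternatives were quantile normalisation, median centring, brighter probe sets, a stricter FDR, the sum of ranks, limma with a trend or replicate block, and leaving out each rat.

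All member probe sets are named. Of each list of other class II pathway genes, those called by Rank Products and the 2 with the largest absolute difference are named, using the probe set with the highest mean, and for likeness the 5 highest r. Irf8 and Cd4 stand on 2 lists each, and Tap1, a class I transporter, was counted with endosomal processing. Members, lists and tests were chosen with earlier results of these data known. Promoters came from RefSeq (GRCr8), matched by symbol. The miRNA arrays and raw images were not used here.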

Additional observations from a re-analysis of the deposited data

How the results depend on the processing

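The 4 class II probe sets called lower stayed 4, the same ones, under quantile normalisation, median centring, the brighter probe sets and an FDR under 0.01. Leaving out single rats gave 0 (without sham rat 3) to 6 (without MCAO rat 1), and 2 without sham rat 2. The sum of ranks called 1 (RT1-Db1), and limma called 0 by adjusted p (also with an intensity trend or the replicate block) and 0 by unadjusted p. With the replicate block, 2 (RT1-Da and RT1-Db1) passed the unadjusted p, as did 917 lower and 1012 higher probe sets over the array, an alternative chosen after seeing the data. Same-numbered rats correlated at 0.215, 0.0399 and 0.0631 in their deviations, so the numbers were not taken to pair animals. Over all probe sets the 184 lower calls became 81 under quantile normalisation, 88 among brighter probe sets, 52 at an FDR under 0.01 and 13 to 330 when single rats were left out. The cause of these moves was not tested.

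Of 112 differences recomputed under settings that can move them, 94 kept their direction and 18 turned, all at probe sets that were not called. Quantile normalisation turned RT1-Ba at 1370822_at to 3.287e-05 and Ciita at 1369214_a_at to 2.122e-05. Median centring adds 2.978e-05 to every difference on the array, which turned RT1-Db1 at 1370382_at to 2.976e-05, RT1-DMa to 2.688e-05, and Ciita to 2.975e-05 at 1369214_a_at and 2.771e-05 at 1379381_at. The exact permutation p was 1.0 for RT1-Ba and Ciita as turned by quantile normalisation, 1.0 for RT1-Db1 at 1370382_at, left there with a difference of -1.04e-16, and 0.1 to 0.2 for those turned by centring. Leaving out single rats gave -0.0112 to 0.00526 for RT1-Ba at 1377334_at, -3.82e-07 to 2.79e-07 for RT1-Db1 at 1370382_at, -1.22e-05 to 2.32e-06 for RT1-DMa, -0.000366 to 0.000107 for RT1-DMb and -2.15e-06 to 2.1e-06 for Ciita at 1369214_a_at. The number of arrays limits all of these values, and signal over background is not known.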
